A study of Mus musculus with 6 samples.

Results

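Regions of open chromatin that lay at the ends of neighbouring genes were examined in hematopoietic stem cells of the mouse. Peaks of 6 ATAC-seq libraries were merged on chromosomes 1 to 19 and X wherever they shared at least 1 bp, which gave 84592 regions. A region was kept when it lay within 1 kb of annotated ends of at least 2 different protein-coding genes of the mm10 RefSeq annotation, and 2351 regions met this rule. They are called neighbouring-gene regions here and were compared with 13967 regions at an end of 1 protein-coding gene only, and the remaining 68274 regions lay at no such end. Of the 2351 regions, 2277 reached 2 genes and 69 reached 3.

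ATAC-seq uses the Tn5 transposase to cut and tag accessible DNA. The cells were sorted as Lin-Sca-1+c-Kit+CD48-CD150+, about 20000 cells, from 12-week-old C57BL/6 mice. There were 3 libraries labelled Dek_fl, from Dekfl/fl mice, and 3 labelled Dek_cKO, from Dekfl/fl,Tie2-Cre mice, so that floxed Dek alleles were common to both groups. The Tie2-Cre transgene uses control DNA of Tek, which is active in blood and endothelial cells. Dek encodes a nuclear protein that binds chromatin, and its part in chromatin accessibility is the subject of the series title. Dek itself lay at a region with 1 gene end, called in all 6 libraries, and was therefore not among the neighbouring-gene regions. Sequencing in duplicate is stated in the design text, although 3 libraries are labelled in each group. The labels do not say whether the libraries of a group came from separate animals, so p-values measure the spread between libraries, which may be technical.

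The lists held 52451, 71555 and 23813 peaks in replicates 1, 2 and 3 labelled Dek_fl, and those labelled Dek_cKO held 70756, 73173 and 27170. Replicate 3 of both groups had fewer and shorter peaks, and its lists were made with another threshold, so each result is also given without it where that matters. Read depth was not given in the lists, so a region without a call may still be open. The peaks at Tek went against the labels. The peak at the lower end of Tek stood at percentiles 99.9, 99.98 and 87.4 of −log10 p in the 3 Dek_fl libraries, in replicate order, and at 65.1, 51.6 and 8.03 in the 3 Dek_cKO libraries, although the Dek_cKO label names the transgene with Tek control DNA. Directions are therefore between libraries as labelled. Of 9 stem cell marker genes, 9 had a peak at an end in at least 1 library and 2, Kit and Tek, in all 6, whereas Ms4a1, Cd3g, Cd8a, Ly6g, Elane, Slc4a1 and Cdh5, markers of other blood and endothelial cells, had none in any library. The erythroid markers Klf1 and Epor had a peak in all 6.

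Many mammalian genes lie head to head, with starts close together on opposite strands. A single nucleosome-free stretch then serves as a bidirectional promoter, from which the genes are transcribed away from each other. Such pairs are well known among genes for DNA repair, mitochondrial function, chaperones and histones, and their promoters tend to be rich in CpG dinucleotides and poor in TATA boxes. Where genes follow each other on one strand, the end of one lies beside the start of the next, and where they converge, their 3′ ends meet. Among gene ends, open chromatin is found mostly at starts.

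The promoter windows of 5 divergent pairs are printed because they show the DNA that one accessible region shares between a pair of genes. Each window runs 5′ to 3′ on the strand of the named gene, from 250 bases before its annotated start to 50 after it (RefSeq, GRCm38.p6, the assembly of mm10). The first is the window of Tap1, a peptide transporter of antigen presentation, at chr17:34187306-34187605 on the plus strand. Its partner Psmb9, an immunoproteasome subunit, starts at base 25 of the window and runs the other way. The second is that of Mrps11, a mitochondrial ribosomal protein, at chr7:78782881-78783180 on the plus strand, with the start of Mrpl46 at base 209. The third is that of the histone gene H2bc12 at chr13:22035571-22035870 on the plus strand, with the start of H2ac12 at base 73. The fourth is that of the RNA helicase gene Ddx49 at chr8:70302422-70302721 on the minus strand, whose partner Cope, a coat protein of transport vesicles, starts 296 bp away. The fifth is that of Gla, the lysosomal alpha-galactosidase A, at chrX:134600956-134601255 on the minus strand, with the start of Hnrnph2 at base 77. Capitals mark matches to the letters of 10 motifs searched on both strands, which are spelled out beside the results on sequence.
Tap1: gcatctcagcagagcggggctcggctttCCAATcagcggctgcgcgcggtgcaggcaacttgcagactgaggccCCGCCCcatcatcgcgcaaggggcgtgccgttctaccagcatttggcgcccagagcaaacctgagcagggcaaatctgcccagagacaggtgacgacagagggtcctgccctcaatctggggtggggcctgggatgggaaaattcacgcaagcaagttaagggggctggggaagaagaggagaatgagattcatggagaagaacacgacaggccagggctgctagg
Mrps11: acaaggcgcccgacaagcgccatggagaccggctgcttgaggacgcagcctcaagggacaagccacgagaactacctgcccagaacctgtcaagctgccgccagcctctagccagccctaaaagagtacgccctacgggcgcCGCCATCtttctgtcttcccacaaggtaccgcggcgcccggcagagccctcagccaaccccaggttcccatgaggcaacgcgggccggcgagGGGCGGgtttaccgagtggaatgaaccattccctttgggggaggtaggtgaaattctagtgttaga
H2bc12: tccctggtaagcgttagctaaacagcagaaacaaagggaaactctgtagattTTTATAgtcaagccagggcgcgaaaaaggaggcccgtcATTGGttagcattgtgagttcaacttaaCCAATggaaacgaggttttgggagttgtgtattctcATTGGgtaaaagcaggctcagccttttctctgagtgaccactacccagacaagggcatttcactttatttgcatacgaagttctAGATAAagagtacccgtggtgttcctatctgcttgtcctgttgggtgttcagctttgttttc
Ddx49: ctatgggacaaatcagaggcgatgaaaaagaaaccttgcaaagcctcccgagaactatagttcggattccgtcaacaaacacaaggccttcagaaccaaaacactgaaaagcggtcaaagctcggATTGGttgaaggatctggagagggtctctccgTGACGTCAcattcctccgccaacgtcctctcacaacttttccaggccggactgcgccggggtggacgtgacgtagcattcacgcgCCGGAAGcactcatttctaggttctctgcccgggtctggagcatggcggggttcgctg
Gla: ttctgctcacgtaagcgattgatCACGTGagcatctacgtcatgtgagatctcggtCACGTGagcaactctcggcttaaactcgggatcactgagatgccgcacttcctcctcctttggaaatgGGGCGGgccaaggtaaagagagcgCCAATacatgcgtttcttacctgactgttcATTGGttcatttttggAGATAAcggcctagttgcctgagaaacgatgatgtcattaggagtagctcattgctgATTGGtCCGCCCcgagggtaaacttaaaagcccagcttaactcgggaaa

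In these windows, matches to the CCAAT box stood at base 29 of Tap1 and at bases 91, 119 and 155 of H2bc12. The H2bc12 window also held a TATA box match at base 53 and the GATA letters at base 239. The GC box stood at base 75 of Tap1 and 235 of Mrps11, and Mrps11 held the YY1 core at base 143. The Ddx49 window held the CRE core at bases 158 and 159, where both strands of 1 palindrome match, and the ETS letters at base 243. It also held the CCAAT box at base 126. The Gla window held the E box at bases 24 and 57 and the CCAAT box at bases 149, 179 and 252. Its GC box matches stood at bases 125 and 258 and its GATA letters at base 195. The regions around all 5 windows were called in all 6 libraries.

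Neighbouring-gene regions were called in more libraries than regions at 1 gene end. A peak was called in all 6 libraries in 1813 of the 2351 regions (77.1%), in 7984 of the 13967 regions at 1 gene end (57.2%) and in 23.3% of all regions. Only 2.72% of the neighbouring-gene regions had a peak in a single library, against 5.62% of the one-gene regions. The percent called per library was 92.1%, 96.5% and 79.8% in the Dek_fl libraries (replicates 1, 2 and 3 in order) and 97.2%, 97.4% and 80.4% in the Dek_cKO libraries. For one-gene regions it was 83.7%, 94.0% and 61.6%, and 93.7%, 94.3% and 62.8%. In every library the neighbouring-gene regions stood higher, by 2.47 to 18.2 percentage points, with the widest gaps in replicate 3. That width is over regions merged from all 6 lists, and in regions merged from the replicate 3 lists alone the gap was 4.04 points.

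The mean gap was 8.87 points (SD 7.30, n = 6 libraries), and an exact two-sided sign-flip test over the 64 sign patterns gave p = 0.03125, the smallest it can give (Benjamini-Hochberg adjusted p = 0.0495 over 19 such tests). In replicates 1 and 2 alone the gap was 4.11 points, with an exact p of 0.125, the smallest that 4 libraries allow. The libraries share the same regions, so the p speaks for these libraries and not for other regions.

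The peaks in neighbouring-gene regions also stood higher in their lists. The authors' fold enrichment of each peak was turned into a percentile within its whole list, since folds are not comparable between lists. Over the regions called in a library, the median percentile was 83.4, 77.8 and 73.1 in the Dek_fl libraries (replicates 1, 2 and 3 in order) and 78.8, 80.6 and 73.7 in the Dek_cKO libraries. The one-gene regions had 72.2, 67.7 and 64.5, and 68.8, 69.7 and 64.8. The gap of 9.96 points (SD 1.0, n = 6) was similar in size in all libraries, from 8.69 to 11.2 points (exact sign-flip p = 0.03125, adjusted p = 0.0495). In equal-length lists it was 5.91 points (exact p = 0.03125).

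Peaks in these regions were also longer. Median peak length was 1210, 1476 and 763 bp in the Dek_fl libraries (replicates 1, 2 and 3 in order) and 1445, 1323 and 736.5 bp in the Dek_cKO libraries, against 1060, 1345 and 683 bp and 1313, 1163 and 647 bp at one-gene regions. The log2 ratio of the medians was 0.17 (SD 0.026, n = 6, exact sign-flip p = 0.03125, adjusted p = 0.0495). It was 0.11 in equal-length lists and 0.11 in lists held to a −log10 q of at least 10. A longer region reaches a second gene more easily, so length is not independent of the rule. With distances taken from the midpoint of each region the log2 ratio was 0.18, the gap in calls 8.73 points and the gap in percentile 9.90.

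The neighbouring-gene regions were then divided by the orientation of their genes. Strand was known for 17274 of 21631 protein-coding genes (79.9%), which placed most regions in a class. In 570 regions the starts of a pair faced away from each other (divergent), and in 360 the starts lay on opposite strands with the transcribed stretches overlapping. Another 33 had starts on the same strand, 521 had a start beside a 3′ end, and 170 had a pair of 3′ ends. The strand was not known in 623, and 74 had 3 or more genes.

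A peak in all 6 libraries was present in 94.6% of the divergent regions, 88.9% of those with overlapping starts, 81.8% of those with same-strand starts and 75.0% of those with a start and a 3′ end. Of the 170 regions with a pair of 3′ ends, 34 had one. Among one-gene regions the share was 67.8% at a start (6077 of 8969) and 16.3% at a 3′ end (312 of 1912). The regions of unknown strand had 70.8% and those with 3 or more genes 82.4%.

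At divergent starts the percent called was 99.1%, 99.8% and 96.0% in the Dek_fl libraries (replicates 1, 2 and 3 in order) and 99.3%, 99.5% and 95.6% in the Dek_cKO libraries, whereas at single starts it was 89.8%, 96.4% and 71.9%, and 96.2%, 96.7% and 72.9%. The divergent regions thus kept most of their calls in the short lists of replicate 3, where the gap to single starts was widest. That width is again over regions merged from all 6 lists, and it was not computed for replicate 3 lists alone. The gap to single starts was 10.9 points (SD 9.98, n = 6, exact sign-flip p = 0.03125, adjusted p = 0.0495), and 4.31 points in replicates 1 and 2 alone. Median percentile was higher by 11.6 points (SD 1.03) and median length by 0.23 on the log2 scale (SD 0.045), each in 6 of 6 libraries with the same exact p.

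**Figure D1:**
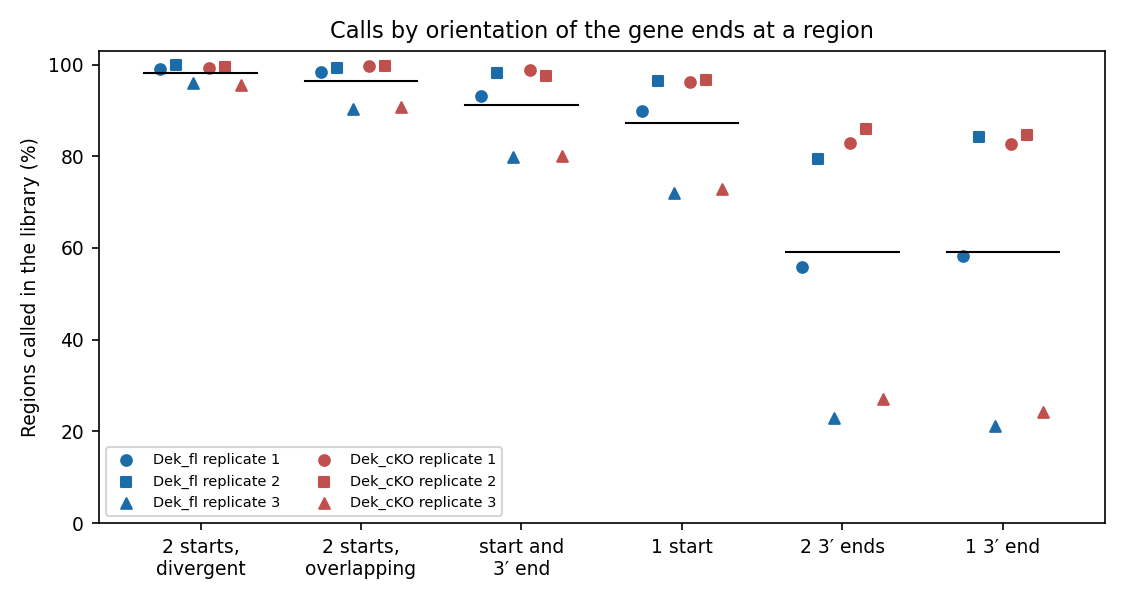
Percent of regions called in each library, by the orientation of the gene ends at the region. Points are libraries (blue Dek_fl, red Dek_cKO, the shape gives the replicate) and the bar is the mean of 6; divergent starts lie between 95.6% and 99.8%, and regions at 3′ ends spread from 21.3% to 85.9%.

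Overlapping starts exceeded single starts by 9.04 points in calls (SD 7.38), by 8.19 points in percentile (SD 1.29) and by 0.21 in log2 length (SD 0.053), each in 6 of 6 libraries (n = 6, exact sign-flip p = 0.03125). Divergent and overlapping starts differed in percentile, by 3.44 points (SD 2.0, higher in 6 of 6 libraries, exact p = 0.03125, adjusted p = 0.0495). Their difference in calls was 1.87 points (SD 2.66, range -0.42 to 5.69, exact p = 0.15625).

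A 3′ end beside a start went with a smaller gap. Such regions exceeded single starts by 3.93 points in calls (SD 2.94, n = 6, exact sign-flip p = 0.03125, adjusted p = 0.0495). Their median percentile differed by 2.50 points (SD 2.76, higher in 5 of 6 libraries, exact p = 0.09375) and their log2 length by -0.015 (SD 0.033, exact p = 0.375), neither past the threshold. Where a pair of 3′ ends met, the difference from a single 3′ end was -0.17 points in calls (SD 2.82, range -4.74 to 2.79, exact p = 0.875), 0.40 points in percentile (SD 4.67, exact p = 0.9375) and 0.051 in log2 length (SD 0.070, exact p = 0.15625). No difference beyond the spread between libraries was found there. These tests by orientation were chosen after the classes had been described.

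**Figure D2:**
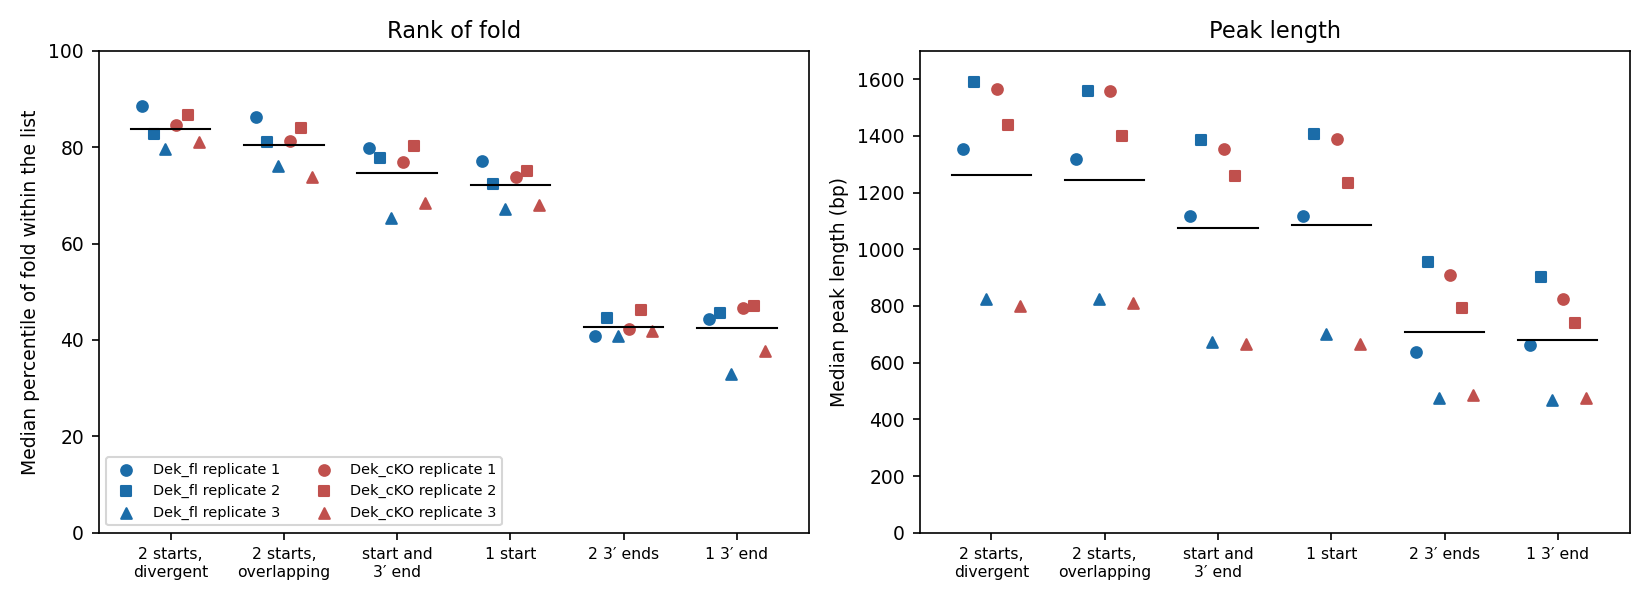
Median percentile of fold within the list (left) and median peak length in bp (right) of the regions called in each library, by orientation; bars are means of 6 libraries. Regions with starts lie between percentiles 65.4 and 88.6, and regions with 3′ ends alone between 32.9 and 47.1.

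The same order was found when annotated gene ends were counted, so that the length of a peak did not choose the members. A peak within 1 kb of an end can also belong to the neighbouring end, so 1 peak can count for both. How much of the gap comes from such double counting was not tested. Of 1862 starts with another gene's start within 1 kb, 90.2% had a peak within 1 kb in all 6 libraries, against 50.5% of 525 starts beside a 3′ end and 42.0% of 14606 starts with no neighbour. For 3′ ends the shares were 51.3% of 579 beside a start, 4.32% of 1480 beside another 3′ end and 2.60% of 14846 with no neighbour. Over all orientations, 48.6% of 6325 ends with a neighbour and 21.9% of 36937 without had a peak in all 6 libraries. The gap per library was 25.6 points (SD 0.73, range 24.8 to 26.6, n = 6, exact sign-flip p = 0.03125, adjusted p = 0.0495), and it was 25.2 points in replicates 1 and 2 alone.

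Starts of divergent pairs lay close together, with a median distance of 106 bp (quartiles 50 and 258 bp, up to 3246 bp). Overlapping starts were 320 bp apart at the median. Up to 500 bp between divergent starts, 93.4% to 98.0% of regions were called in all 6 libraries and the median of the mean percentile lay between 83.7 and 86.3. It was 71.2 in the 37 regions with 501 to 1000 bp between the starts and 68.6 in the 33 regions beyond 1000 bp. Among overlapping starts it was 82.8 in the 122 regions with up to 200 bp of overlap and 59.3 in the 56 regions with more than 1000 bp. These are descriptions over regions, without a test.

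**Figure D3:**
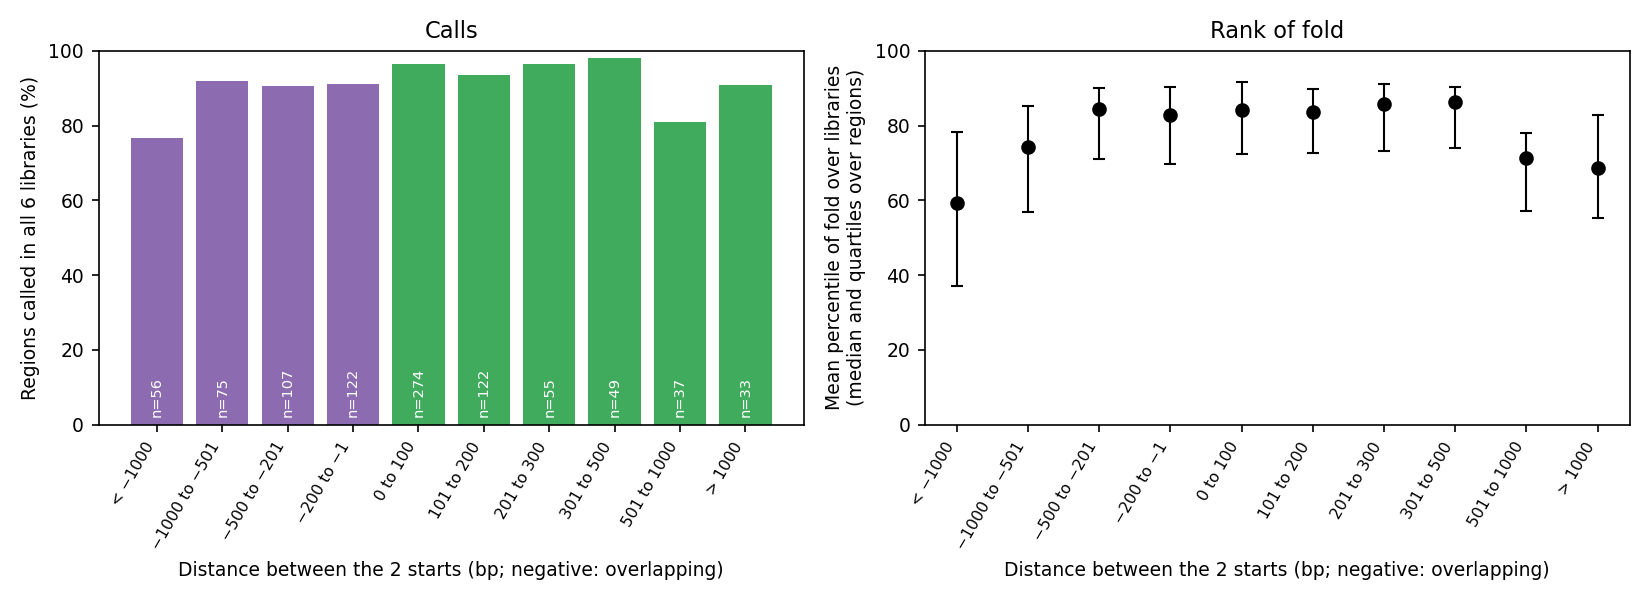
Percent of regions called in all 6 libraries (left) and the mean percentile of fold (right, median with quartiles over regions) by the distance in bp between the starts of opposite-strand pairs, negative where the transcribed stretches overlap. Both measures are highest between 201 and 500 bp and lowest, at 76.8% and 59.3, beyond 1000 bp of overlap.

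The summit, the point of most signal in a peak, was set against the midpoint of each pair. Its median offset from the midpoint between divergent starts was between -17 and 0.5 bp over the 6 libraries, and 47.7% to 59.4% of summits lay within 100 bp of the midpoint. In regions with single starts 36.3% to 44.4% of summits lay within 100 bp of the start, and the median summit lay 34 to 79 bp inside the gene. Where divergent starts were at least 200 bp apart (164 to 175 regions called per library), 59.8% to 66.9% of summits lay between the starts, and 33.1% to 43.4% lay within 100 bp of the midpoint. Their median distance from it was 139 to 175 bp. Over all divergent regions, 31.6% to 42.3% of summits lay between the starts.

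**Figure D4:**
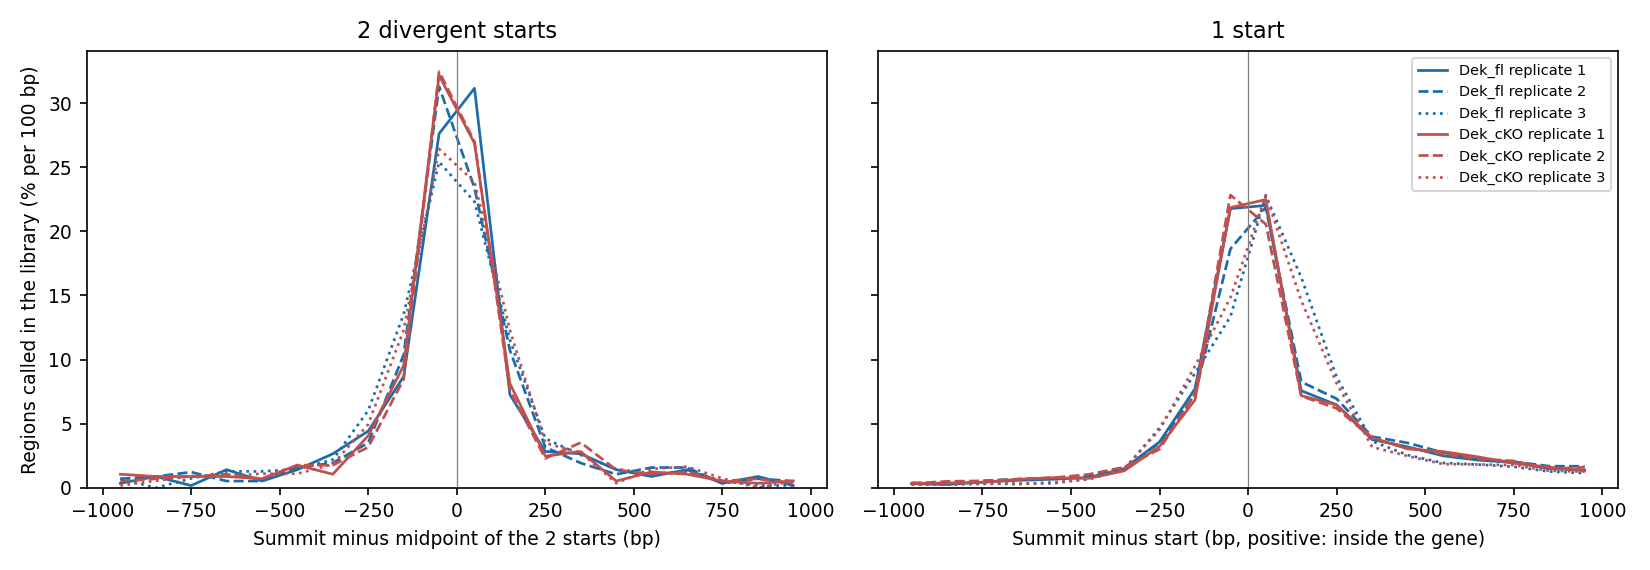
Distribution of peak summits around the midpoint of divergent starts (left) and around single starts (right), as percent of called regions per 100 bp, with 1 line per library. The left curves are centred near 0 and the right curves have a longer side inside the gene.

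The sequence of the promoter windows was set beside these classes. RefSeq windows with a matching start were used for 15534 genes. Median GC content was 62.0% in 1056 windows at divergent starts, 61.0% in 7951 at single starts and 56.7% in all windows. The ratio of observed to expected CpG was 0.848, 0.736 and 0.594. The ETS letters (CCGGAAG or CTTCCGG), as read by ETS factors, were in 28.6% of the divergent windows, 14.0% of the single-start windows and 12.2% of all. Among regions called in all 6 libraries the shares were 29.5% and 17.6%, a difference also present between regions of like calls.

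The YY1 core (GATGGCG or CGCCATC) was in 10.5%, 5.56% and 4.49% of divergent, single-start and all windows, and the NRF1 core (GCGCATG or CATGCGC) in 8.90%, 6.72% and 5.07%. The GC box (GGGCGG or CCGCCC) was in 69.0%, 64.6% and 47.4%, and the CCAAT box (CCAAT or ATTGG) in 43.8%, 37.7% and 39.8%. The TATA box (TATAAA or TTTATA) went the other way, with 5.49%, 7.60% and 13.8%. So did letters read by blood factors, with the RUNX letters (TGTGGT or ACCACA) in 9.28%, 12.6% and 14.7% and the GATA letters (AGATAA or TTATCT) in 4.55%, 6.36% and 9.97%. The CRE core (TGACGTC or GACGTCA) was in 6.34%, 5.29% and 4.10% and the E box (CACGTG) in 10.9%, 10.0% and 8.11%. Among regions called in all 6 libraries, divergent and single-start windows had 69.3% and 69.4% for the GC box, 10.9% and 10.9% for the E box and 6.43% and 6.26% for the CRE core, nearly equal shares. The YY1 core (10.8% and 6.52%), the NRF1 core (9.30% and 8.0%) and the CCAAT box (44.3% and 39.7%) were more frequent in the divergent windows there too, and the TATA box (5.44% and 6.89%), the RUNX letters (9.40% and 12.6%) and the GATA letters (4.75% and 5.78%) less. Matches may overlap, as CRE cores on opposite strands do, and windows of close pairs overlap, so that 1 match can be counted for both genes. These shares are descriptions of letters, without a test, and a match is not a bound site.

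Textbook pairs were taken from a list of 21 pairs known to lie side by side. Of these, 18 had a neighbouring-gene region, and in 17 of the 18 it was called in all 6 libraries. Psmb9 and Tap1 stood near the top of these pairs, at chr17:34186649-34188341. Their percentiles were 93.8, 92.8 and 96.6 in the Dek_fl libraries (replicates 1, 2 and 3 in order) and 94.2, 95.5 and 87.8 in the Dek_cKO libraries. Ddx49 and Cope had 87.6, 95.4 and 87.6, and 95.6, 97.3 and 79.0. These regions stood high in every library and the groups overlapped.

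Atm, the kinase of the DNA break response, and Npat, a coactivator of histone genes, shared chr9:53535850-53537777, with percentiles of 98.3, 91.6 and 95.7 in Dek_fl and 86.8, 90.5 and 97.8 in Dek_cKO, replicates 1, 2 and 3 in order. Hspd1 and Hspe1, which encode the mitochondrial chaperonin and its co-chaperonin, had 83.8, 70.0 and 90.1, and 66.8, 71.7 and 84.3. Brca1, of homologous recombination, and Nbr1, an autophagy receptor, had 88.9, 78.3 and 83.8, and 79.7, 83.7 and 73.3. In each of the 3 regions the groups overlapped.

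At the lower end of the list stood Trp53, which encodes p53, with its antisense neighbour Wrap53, at 59.1, 42.8 and 43.0 in Dek_fl and 45.6, 49.4 and 56.6 in Dek_cKO. Col4a1 and Col4a2, the collagen IV genes of basement membranes, had 56.0, 66.0 and 13.8, and 67.1, 63.5 and 33.9. The region of Tk1, thymidine kinase, and Afmid was called in replicates 1 and 2 of both groups, at 52.5 and 50.2, and 54.5 and 47.5, and in neither replicate 3. Among the pairs without a neighbouring-gene region were Chek1 with Stt3a and Ctcf with Carmil2. The pairs thus ranged from the top of the lists to the middle.

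**Figure D5:**
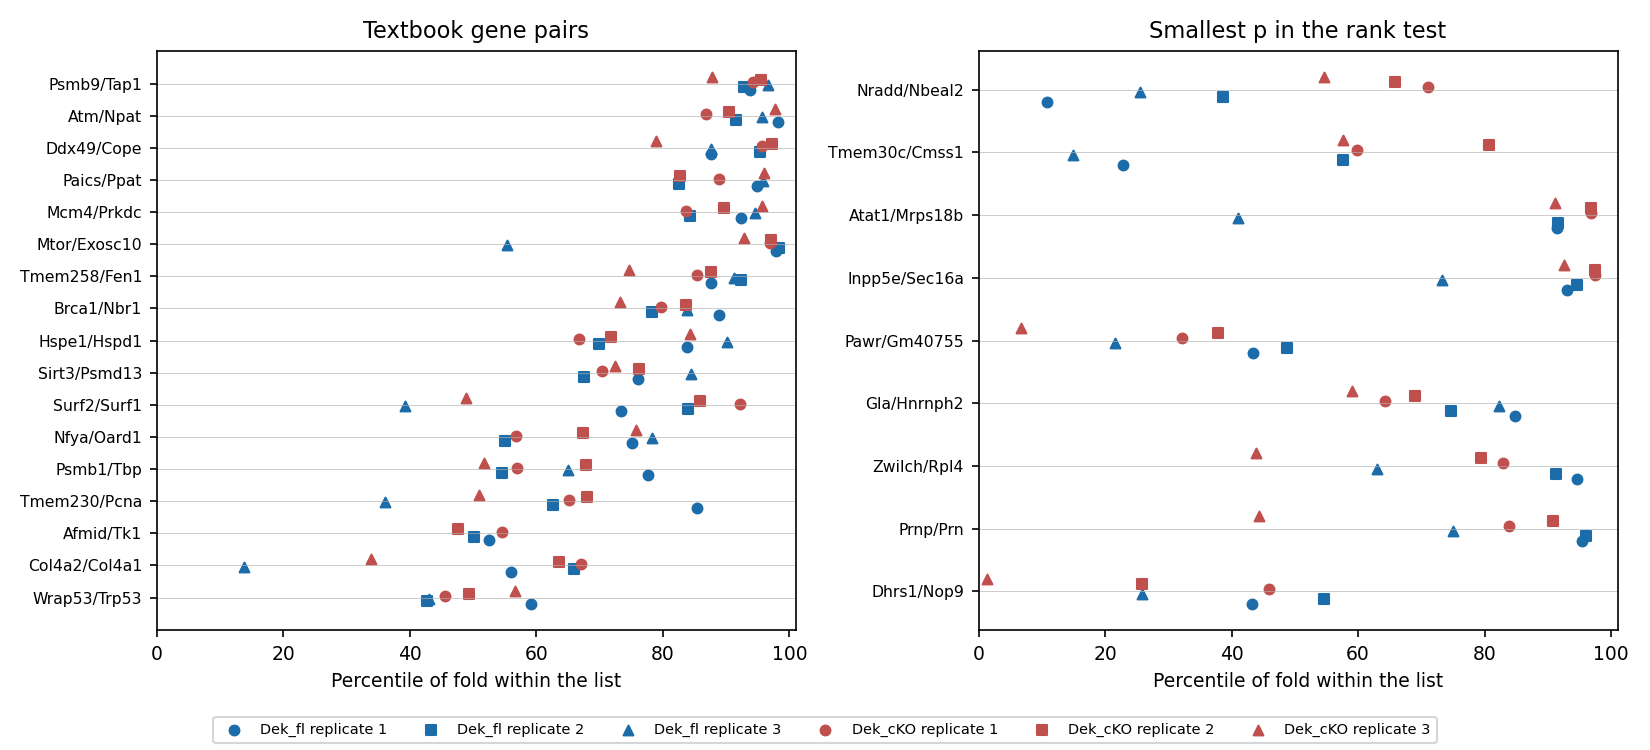
Percentile of fold within the list, in each library, at textbook pairs (left) and at neighbouring-gene regions with the smallest p in the rank test (right). Most textbook pairs show overlapping groups; at Nradd/Nbeal2 the Dek_fl points lie between 10.8 and 38.6 and the Dek_cKO points between 54.6 and 71.1.

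The regions with the highest mean percentile were not textbook pairs. Mrpl44, a mitochondrial ribosomal protein, and Wdfy1 shared chr1:79775632-79776584, with percentiles of 99.6, 99.8 and 98.7 in Dek_fl and 99.9, 99.9 and 99.0 in Dek_cKO. Nr2c1, an orphan nuclear receptor, and Ndufa12, of respiratory complex I, followed with a mean of 99.4 over the 6 libraries. Pfn4 with Fam228b also had a mean of 99.4, and Cryz with Tyw3 and Hormad1 with Golph3l had 99.2 each. The widest region, 3910 bp, covered Mus81, a DNA structure nuclease, and Cfl1, cofilin, on chromosome 19, with peak lengths of 1660, 3748 and 593 bp in Dek_fl and 3828, 1561 and 454 bp in Dek_cKO. Its mean percentile was 32.0, so width did not go with a high rank there, and the starts lay 2066 bp apart.

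A few regions touched many genes. At chr17:24894552-24896939 lay ends of Eme2, Mrps34, Nme3 and Mapk8ip3, and at chr17:47687409-47689497 ends of Tomm6, Usp49, Gm20517, Frs3 and Prickle4, both called in all 6 libraries with mean percentiles of 58.7 and 72.4. The Ugt1a genes, which share their last exons and encode enzymes of glucuronidation, put 7 gene ends at 1 region that was called in 2 libraries at a mean percentile of 3.67. Gene families that share an end in the annotation enter by that shared end and are not separate promoters.

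How often the genes of a functional list had a neighbour differed widely. Of all 21631 protein-coding genes, 25.1% had an end within 1 kb of another gene's end and 20.1% had an end at a neighbouring-gene region. Of 37 respiratory complex I genes, which build the entry enzyme of the respiratory chain, 25 had such a neighbour (67.6%) and 24 lay at a neighbouring-gene region. For 62 replication-dependent histone genes the counts were 42 (67.7%) and 44, for 44 DNA repair genes 25 (56.8%) and 20, and for 78 mitochondrial ribosomal protein genes 44 (56.4%) and 40. The 77 cytosolic ribosomal protein genes had 28 (36.4%) and 25, and the 39 proteasome genes 12 (30.8%) and 11. A region can reach a pair of genes whose ends lie more than 1 kb apart, so the second count can exceed the first.

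Fewer genes of other lists had neighbours. Of 394 Zfp genes 56 had one (14.2%), of 24 stem cell regulators 3 (12.5%), of 49 keratin genes 4 (8.16%) and of 1106 olfactory receptor genes 9 (0.814%). The 2 regulators at neighbouring-gene regions were Etv6, an ETS-family repressor needed by adult stem cells, beside Gm46977, and Lyl1, a bHLH factor, beside Trmt1. The Etv6 region had percentiles of 79.5, 66.7 and 53.8 in Dek_fl and 68.2, 70.0 and 54.6 in Dek_cKO, and that of Lyl1 28.9, 17.1 and 22.4, and 27.2, 35.2 and 49.3. The Lyl1 region thus lay between percentiles 17.1 and 49.3, although it was called in all 6 libraries. The share of genes with a neighbour was counted from the annotation, without a test.

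Most of the neighbouring-gene regions of these lists were called in every library, as they were over all genes. All 6 libraries had a peak at such a region for 23 of the 24 complex I genes, 38 of 40 mitochondrial ribosomal protein genes, 42 of 44 histone genes, 19 of 20 DNA repair genes, 11 of 11 proteasome genes and 21 of 25 cytosolic ribosomal protein genes. Over all genes at such regions it was 3508 of 4358 (80.5%). Mrps11 and Mrpl46, 42 bp apart, had percentiles of 99.2, 99.0 and 91.8 in Dek_fl and 99.6, 99.2 and 91.3 in Dek_cKO. Ndufb3, of complex I, with Fam126b had 91.5, 98.6 and 87.0, and 96.4, 98.3 and 91.6. H2bc12 with H2ac12 had 95.4, 89.1 and 70.4, and 87.1, 86.9 and 71.8.

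The groups were compared over the neighbouring-gene regions. The percent called was 89.5% ± 8.62 (SD, n = 3) in Dek_fl and 91.6% ± 9.75 (SD, n = 3) in Dek_cKO, a difference of 2.18 points (exact two-sided permutation test over 20 assignments, p = 0.5, where the smallest possible p is 0.1). It was 3.00 points in replicates 1 and 2 and 0.55 in replicate 3. The sign turned to -2.64 without Dek_fl replicate 3, -0.70 without Dek_cKO replicate 1 and -0.73 without Dek_cKO replicate 2, and to -0.69 in lists of equal length. The difference did not pass the test. Of the 3 same-numbered pairs, 3 were higher in Dek_cKO, and with the replicate number as a block the exact sign-flip p was 0.25, the smallest that 3 pairs allow. One-gene regions had 79.8% ± 16.6 and 83.6% ± 18.0 (SD, n = 3, difference 3.82 points, exact p = 0.6).

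The advantage of neighbouring-gene over one-gene regions was 9.68 points ± 7.97 in Dek_fl and 8.05 ± 8.23 in Dek_cKO (SD, n = 3). The difference of -1.64 points was within the spread (exact permutation p = 0.8), and it was -2.11 in replicates 1 and 2 and -0.69 in replicate 3. It turned to 2.63 without Dek_fl replicate 3, 0.54 without Dek_cKO replicate 1 and 0.86 without Dek_cKO replicate 2. In lists of equal length it was 0.96 points, with an exact permutation p of 0.1, the smallest possible. The sign thus depended on how the lists were made. Median peak length was 1150 bp ± 360 in Dek_fl and 1168 bp ± 379 in Dek_cKO (SD, n = 3, log2 ratio of geometric means 0.016, exact p = 1.0). The median percentile, given as a description because the lists differ in length, was 78.1 ± 5.13 and 77.7 ± 3.54 (SD, n = 3).

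By orientation, divergent regions were called at 98.3% ± 2.06 in Dek_fl and 98.1% ± 2.18 in Dek_cKO (SD, n = 3, exact p = 0.8). Regions with a start and a 3′ end had 90.3% ± 9.42 and 92.1% ± 10.5 (exact p = 0.7, n = 3), and those with a pair of 3′ ends 52.7% ± 28.4 and 65.3% ± 33.1 (exact p = 0.5, n = 3). The last difference, 12.5 points, was 16.8 in replicates 1 and 2 and 4.12 in replicate 3, and single 3′ ends differed by 9.31 points (exact p = 0.6, n = 3).

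Ranks were then compared region by region. The fold values of the 19683 regions called in all 6 libraries were ranked within each library and the ranks put on a normal scale, and limma was run on these scores, adjusting p-values over all 19683 regions by the Benjamini-Hochberg method. Of the 1813 neighbouring-gene regions tested, 0 rose and 0 fell at an adjusted p under 0.05, as over all regions (0% each way). At an unadjusted p under 0.05, 4 were higher and 1 lower in Dek_cKO, beside 0.345% and 0.0965% of all regions. These shares of all regions lie far below the threshold, so the fit without a block was conservative. Its count of 0 is therefore weak evidence of no change. In the fit with the replicate number as a block, the unadjusted shares were 2.97% and 1.47% of all regions. Among neighbouring-gene regions they were 1.05% and 1.38%. Scores did not overlap between the groups in 24 regions higher (1.32%) and 42 lower in Dek_cKO (2.32%), where all regions had 2.1% and 2.27%. With the replicate number as a block, 0 neighbouring-gene regions were called in either direction at an adjusted p under 0.05, beside 0.00508% of all regions higher and 0% lower. The median difference was -0.074 for neighbouring-gene regions, -0.056 for one-gene regions and -0.018 for all regions.

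The region with the smallest p (chr9:110624079-110625489) lay at the start of Nradd and the 3′ end of Nbeal2. Nbeal2 is needed for the alpha granules of platelets, but its start was not at this region. The folds of the region were 2.84, 3.98 and 6.08 in the Dek_fl libraries (replicates 1, 2 and 3 in order) and 6.60, 6.54 and 8.69 in the Dek_cKO libraries. Within each list this placed it at percentiles 10.8, 38.6 and 25.5, and 71.1, 65.8 and 54.6, so the groups did not overlap. The difference in score was 1.13 (cKO minus fl, SE 0.37, n = 3 per group), with a limma adjusted p of 1.0. It lay between 0.77 and 1.52 under every alternative in which it could be computed. These alternatives reuse the libraries by which the region was picked, so they are no separate support.

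Tmem30c with Cmss1 had percentiles of 22.8, 57.6 and 14.9 in Dek_fl and 59.9, 80.8 and 57.6 in Dek_cKO (score difference 1.01, SE 0.36). Dek_fl replicate 2 and Dek_cKO replicate 3 all but met there. Atat1, the tubulin acetyltransferase, with Mrps18b had 91.4, 91.5 and 41.1, and 96.7, 96.8 and 91.2 (difference 0.89, SE 0.39), with Dek_fl replicate 3 far below the others. Inpp5e with Sec16a differed by 0.56 (SE 0.30). Atat1 and Inpp5e had their starts at these regions, whereas Mrps18b and Sec16a had only a 3′ end there.

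Toward Dek_fl, Dhrs1 with Nop9, a factor of ribosome assembly, had percentiles of 43.3, 54.7 and 25.8 in Dek_fl and 45.9, 25.8 and 1.34 in Dek_cKO (difference -0.91, SE 0.39), and the groups overlapped. Prnp, the prion protein gene, and Prn are annotated from the same start on the same strand, so their region entered by 1 shared start. It had 95.4, 96.0 and 74.9, and 83.8, 90.8 and 44.3 (difference -0.84, SE 0.38). Zwilch, of the spindle checkpoint, with Rpl4 had 94.6, 91.2 and 63.0, and 82.9, 79.4 and 43.8 (difference -0.76, SE 0.36). Gla with Hnrnph2, whose window is printed above, had 84.8, 74.7 and 82.3, and 64.3, 69.0 and 59.0 (difference -0.70, SE 0.34). Its percentiles did not overlap between the groups, but its scores did, at -0.13 in Dek_fl replicate 2 and -0.069 in Dek_cKO replicate 3. Pawr with Gm40755 differed by -0.59 (SE 0.28). None of these regions passed the limma test (adjusted p = 1.0, n = 3 per group), and none changed sign under any alternative run. They were picked by their small p in these same libraries, so a stable sign is no separate support.

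Calls confined to one group were rare. In the neighbouring-gene regions 2 were called in all 3 Dek_cKO libraries and no Dek_fl library, beside 0.104% of all regions, and 0 the other way, beside 0.00355%. They lay at Upf1, Cers1 and Gdf1 (chr8:70330179-70331187, folds 4.01, 3.83 and 5.93) and at Pkm and Gramd2 (chr9:59678466-59678885, folds 2.95, 2.79 and 4.25). Both ranked low in their lists, at mean percentiles of 25.5 and 7.09. Without Dek_cKO replicate 3 the count was 21 (0.894%, beside 2.97% of all regions) and without Dek_fl replicate 2 it was 10 (0.431%, beside 0.926%), so the count depended on which lists were used.

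The second gene end lay 995 bp from the region of Map3k12 and Tarbp2 and 998 bp from that of Decr2 and Nme4, which were counted, and Mmp11 lay 1001 bp from the region of Smarcb1 and Tulp2 1003 bp from that of Ppp1r15a, which were not. The 48 regions with the second end between 900 and 1000 bp had a median of the mean percentile of 77.9, and the 49 regions between 1000 and 1100 bp had 78.1.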

How the data were processed

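Peak lists of 6 ATAC-seq libraries were used, called by the authors separately for each library. Bowtie2, Picard and MACS2 and the build mm10 are named per the submitters' processing notes, and any shift of reads for the cut of Tn5 is not stated in the labels. Every row of the deposited lists gives a score, a fold enrichment (a ratio of the summit to the background), a −log10 p-value and a −log10 q-value, as the authors' caller wrote them. The deposited lists of replicate 3 in both groups were made with another threshold. Replicates 1 and 2 and replicate 3 thus form batches that each hold both groups. The main tests held no term for batch, and values within each batch are given beside some of them. A limma fit with a batch term, run as an alternative, called 0 neighbouring-gene regions higher and 0 lower at an adjusted p under 0.05. Read depth is unknown, so no interval is given for a call.

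Gene ends came from RefSeq (21631 protein-coding genes), strand and promoter windows from the RefSeq promoter table of GRCm38.p6, and exons were not used here. Percent called, median length and median percentile were compared between region classes by exact sign-flip tests over libraries and between groups by exact permutation tests. Ranks of shared regions were compared with limma 3.58.1 (R 4.3.3), with Benjamini-Hochberg adjustment and a threshold of 0.05. The fit was also run on simulated scores with independent noise of the same spread in every region and library. These scores lacked the pattern shared by the replicate 3 libraries, so that run does not speak for it. Other steps used Python 3.11.15 with scipy 1.17.1. Deviations of same-numbered libraries from the group means correlated at 0.27, 0.52 and 0.74, so a fit with the replicate number as a block was run as an alternative. Dek_fl replicate 1 with Dek_cKO replicate 2 (0.31) and Dek_fl replicate 2 with Dek_cKO replicate 1 (0.57) correlated as much, so replicate 3 stood apart from replicates 1 and 2 but these were not told apart from each other. Other alternatives were equal-length lists, a −log10 q of at least 10, distances of 500 bp and 2 kb or from the midpoint, merging within 100 bp, ranks by −log10 p, and leaving out libraries.

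The regions, lists and tests were chosen with earlier results of these data known. Named were the textbook pairs, the regions with the most genes, the 5 with the highest rank and the 3 widest, the 5 with the smallest limma p in each direction, those called in one group only, up to 4 per list and those beside the 1 kb limit. Some of these are not reported here.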

Additional observations from a re-analysis of the deposited data

How the results depend on the processing

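With replicates 1 and 2 only, the gaps between neighbouring-gene and one-gene regions were 4.11 points in calls, 0.16 in log2 length and 10.5 points in percentile, and that between gene ends with and without a neighbour 25.2 points. Divergent against single starts then gave 4.31 points, 0.21 and 11.1 points. With replicate 3 only, the first 4 values were 4.04, 0.20, 9.51 and 26.5. All kept their direction, and none can reach the threshold with so few libraries, nor with 5, where the smallest p is 0.0625. Leaving out 1 library in turn gave 6.89 to 9.82 points in calls, 0.16 to 0.17 in length, 9.74 to 10.2 points in percentile and 25.5 to 25.8 points at gene ends. The settings for divergent starts were chosen after seeing the data.

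Between the groups, leaving out 1 library gave -2.64 to 7.78 points in calls, -0.25 to 0.32 in log2 length and -6.45 to 2.63 points in the advantage over one-gene regions. Length turned to -0.25 without Dek_fl replicate 3, -0.17 without Dek_cKO replicate 1 and -0.10 without Dek_cKO replicate 2, and to -0.041 with replicate 3 only. With equal-length lists the differences were -0.69 points in calls (exact permutation p = 0.8) and 0.96 points in the advantage. The latter had an exact permutation p of 0.1, the smallest possible. Neighbouring-gene regions called in Dek_cKO only numbered 1 with ends within 500 bp (0.0521%) and 1 with midpoints (0.0569%), each beside 0.104% of all regions. Equal-length lists gave 3 (0.151%, beside 0.115% of all regions). There were 21 (0.895%, beside 3.05%) with replicates 1 and 2 only and 58 (3.30%, beside 20.5%) with replicate 3 only. Leaving out 1 library gave 2 to 21 (0.0851% to 0.894%), beside 0.113% to 2.97% of all regions. Those called in Dek_fl only numbered 1 with equal-length lists (0.0503%, beside 0.207% of all regions) and 53 with replicate 3 only (3.02%, beside 9.57%). Leaving out 1 library gave 0 each time, beside 0.00476% to 0.326% of all regions. The cause was not tested.

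The limma count stayed at 0 in both directions in the 17 alternatives run, and with replicate 3 only it could not be fitted. With the replicate block it was 0 and 0 adjusted, with 19 higher (1.05%) and 25 lower (1.38%) at an unadjusted p under 0.05, beside 2.97% and 1.47% of all 19683 regions. The block changed no call among the neighbouring-gene regions. Depth limits all calls, since regions missing from a short list may lie just under its threshold.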
